A study of Mus musculus with 5 samples.

Results

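The oxidative phosphorylation genes are the subunit genes of the 5 protein complexes that carry electrons to oxygen and make ATP in the inner mitochondrial membrane. Members were taken by symbol from the deposited gene list: the protein genes of mitochondrial DNA (mt-Nd, mt-Co, mt-Atp, mt-Cytb) and the nuclear Nduf, Sdh, Uqcr, Cox4 to Cox8 and Atp5 families. The rule found 97 of 31053 gene features, 13 mitochondrially encoded and 84 nuclear. Atp5o is listed under 2 gene identifiers, so the members have 96 distinct symbols. Complex I held 42 members, complex II 4, complex III 9, complex IV 22 and complex V 19, and Ndufa4l2 was kept apart. Members were placed by symbol, so a member, such as Atp5s or Cox7a2l, need not be a subunit of its complex. Ndufa4, named for complex I and now counted with complex IV, was placed in complex IV.

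Heart cells labelled non-cardiomyocytes came from C57BL/6 mice, in 1 library for an age of 2 months and 1 library for 18 months. Another library held CD4+ and CD8+ T cells. The T cells were CD44-high cells from the mediastinal nodes, which drain the heart, pooled from C57BL/6 mice of 2, 6, 12 and 18 months. The treatment label was aging for all of them, and how many mice went into each library is not stated in what was used here. Hearts were digested with collagenase II and dispase II, and the cells were stained and sorted. Each heart library carried 2 hashtags (09 and 10 at 2 months, 11 and 12 at 18 months), which are not tied to animals here. The heart libraries used 3′ chemistry and the node library 5′ chemistry, so levels were not set against each other across tissues.

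In these complexes, complex I takes electrons from NADH and complex II from succinate. Complex III passes them to cytochrome c and complex IV to oxygen, and complex V, the ATP synthase, uses the proton gradient they build. Every complex except complex II mixes subunits made in the mitochondrion with subunits imported from the cytosol, so 2 genomes must supply 1 machine. Heart muscle is among the tissues richest in mitochondria. It also makes its own isoforms of some complex IV subunits (Cox6a2, Cox7a1, Cox8b) in place of the widely used Cox6a1, Cox7a2 and Cox8a.

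Sequences of 200 bases before the annotated start are shown for these isoforms, because they set cardiomyocytes apart from other heart cells, with Cox6a2 not among the promoters used here. Atp5g3 is shown because, of the nuclear members with at least 50 UMIs, it stood highest above the other T cells in cycling T cells. They are from RefSeq on GRCm38.p6, 5′ to 3′ on the gene's strand. Capitals mark matches, on either strand, to GCATGCGC (NRF1), CCGGAAGT (ETS factors such as GABPA), AAGATGGC (YY1), TCAAGGTCA (ESRRA), ACGTG (the hypoxia core) or CAGCTG (an E-box of muscle genes). Matches may overlap, as the NRF1 pair in Cox6a1 does.
Cox6a1, chr5:115348959-115349158, minus strand: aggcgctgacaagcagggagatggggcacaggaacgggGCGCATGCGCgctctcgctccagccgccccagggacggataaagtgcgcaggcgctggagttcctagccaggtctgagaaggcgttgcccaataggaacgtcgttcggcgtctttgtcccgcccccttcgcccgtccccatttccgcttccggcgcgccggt
Cox7a2, chr9:79759854-79760053, minus strand: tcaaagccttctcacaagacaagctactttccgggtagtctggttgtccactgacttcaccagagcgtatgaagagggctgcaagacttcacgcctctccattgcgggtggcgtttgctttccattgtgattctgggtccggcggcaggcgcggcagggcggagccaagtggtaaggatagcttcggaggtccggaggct
Cox7a1, chr7:30183971-30184170, plus strand: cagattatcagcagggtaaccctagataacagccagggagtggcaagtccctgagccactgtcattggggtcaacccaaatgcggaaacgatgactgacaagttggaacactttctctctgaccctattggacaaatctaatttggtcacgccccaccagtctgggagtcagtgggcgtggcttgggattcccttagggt
Cox8a, chr19:7217617-7217816, minus strand: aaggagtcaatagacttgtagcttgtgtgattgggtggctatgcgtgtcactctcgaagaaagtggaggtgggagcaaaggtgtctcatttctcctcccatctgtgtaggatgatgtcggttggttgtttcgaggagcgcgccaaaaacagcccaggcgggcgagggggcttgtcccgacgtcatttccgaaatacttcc
Cox8b, chr7:140900447-140900646, minus strand: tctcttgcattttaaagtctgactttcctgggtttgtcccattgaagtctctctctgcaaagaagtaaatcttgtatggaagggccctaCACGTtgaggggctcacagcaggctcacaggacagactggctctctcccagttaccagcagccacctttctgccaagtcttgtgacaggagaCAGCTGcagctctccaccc
Atp5g3, chr2:73911327-73911526, minus strand: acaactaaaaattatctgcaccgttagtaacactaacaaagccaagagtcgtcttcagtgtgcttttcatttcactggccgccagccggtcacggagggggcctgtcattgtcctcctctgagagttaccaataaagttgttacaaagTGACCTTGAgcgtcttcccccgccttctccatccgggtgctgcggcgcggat

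The table held promoters for 66 of 83 nuclear member symbols. Among the muscle isoforms shown, the 250 bases before the start held 4 CpG sites in Cox7a1 and 1 in Cox8b. Their widely used partners held 14 in Cox7a2 and 11 in Cox8a, and Cox6a1 held 26. The member median was 14 CpG sites, against 6 over 27018 promoters of the same length. The NRF1 letters stood in 8 of 66 member promoters (12.1%) and in 2.32% of all promoters. The ETS letters stood in 3 (4.55%, against 2.93%), the YY1 letters in 0 (against 1.59%) and the ESRRA letters in 1, Atp5g3 (1.52%, against 0.366%). The hypoxia core stood in 13 (19.7%, against 16.6%) and the E-box in 6 (9.09%, against 12.8%). Atp5g3 also held the hypoxia core 237 and 238 bases before its start, outside the stretch printed. These are matches of letters in a fixed window and describe no binding.

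The heart libraries gave 10895 kept cells with a median of 8033 UMIs (2 months) and 7807 kept cells with a median of 4368 (18 months). Cells were sorted into classes by clustering without any member gene, and 12 classes had at least 50 cells in each library. They were vascular endothelial, endocardial, fibroblast, smooth muscle, pericyte, cardiomyocyte, macrophage, dendritic, neutrophil, B, T and ILC2 cells, all rebuilt here from marker genes, in all 9533 and 6631 cells. The cardiomyocyte class goes against the sorting label. Its leading genes were Myl7, Myl4, Nppa, Tnni3 and Sln. Atrial and ventricular cells were not told apart in it, so its values need not stand for heart muscle at large. Its summed level of 10 cardiomyocyte markers was 59232 CPM (the usual scaled share of all UMIs of a class) at 2 months and 58684 CPM at 18 months. In the other 11 classes that level ran from 69.9 to 1314 CPM at 2 months and from 24.5 to 1232 CPM at 18 months, and was lower at 18 months in each. The heart libraries shared 42 cell barcodes. Fewer mitochondria per cell and less RNA from each cannot be told apart here.

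Each age is 1 library, so no test between ages was possible. For a gene in a class, UMIs were summed over cells and given as CPM, and the 18-month over 2-month ratio (log2) carries an exact 95% interval that covers counting error only. A member was measured in a class with at least 20 UMIs over both libraries. Cox7b2 (2 UMIs), Cox8c (1 UMI) and the other Atp5o identifier (0 UMIs) were measured in no class. A member was called when the ratio was at least 1.5-fold and the interval left out 0. Cells above 15% mitochondrial UMIs had been removed, which caps the mitochondrially encoded members.

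Nuclear members took the largest share of RNA in cardiomyocytes. They held 14.7% of UMIs at 2 months and 14.0% at 18 months in that class. Smooth muscle cells followed with 3.82% and 3.85%, then pericytes with 2.45% and 2.25%. The remaining 9 classes lay between 1.03% and 1.8% at 2 months, with neutrophils lowest. Of 79 nuclear members measured in cardiomyocytes, 76 were highest there at 2 months, and the median member stood 8.74-fold above the median of the other 11 classes. The exceptions were Cox6a1 and Cox8a, highest in smooth muscle, and Ndufa4l2, highest in pericytes. Atp5g1, which encodes the proton-carrying ring subunit of the ATP synthase, stood at 6034 CPM in cardiomyocytes and 301 CPM in smooth muscle, the next class (20.1-fold).

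Mitochondrially encoded members followed another order. Their share was highest in smooth muscle (7.25% at 2 months, 7.61% at 18 months) and vascular endothelial cells (4.97% and 5.53%), and lowest in neutrophils (0.945% and 0.762%). Cardiomyocytes, first in nuclear members, held only 2.32% and 3.76%. The ratio of mitochondrially encoded to nuclear UMIs was 0.158 and 0.268 in cardiomyocytes and 4.22 and 5.37 in vascular endothelial cells. Both heart libraries thus placed these classes at opposite ends. The limit of 15% removed cells from the top of the mitochondrial range, and 9.39% and 16.9% of cardiomyocyte cells up to 30% lay above it.

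**Figure D1:**
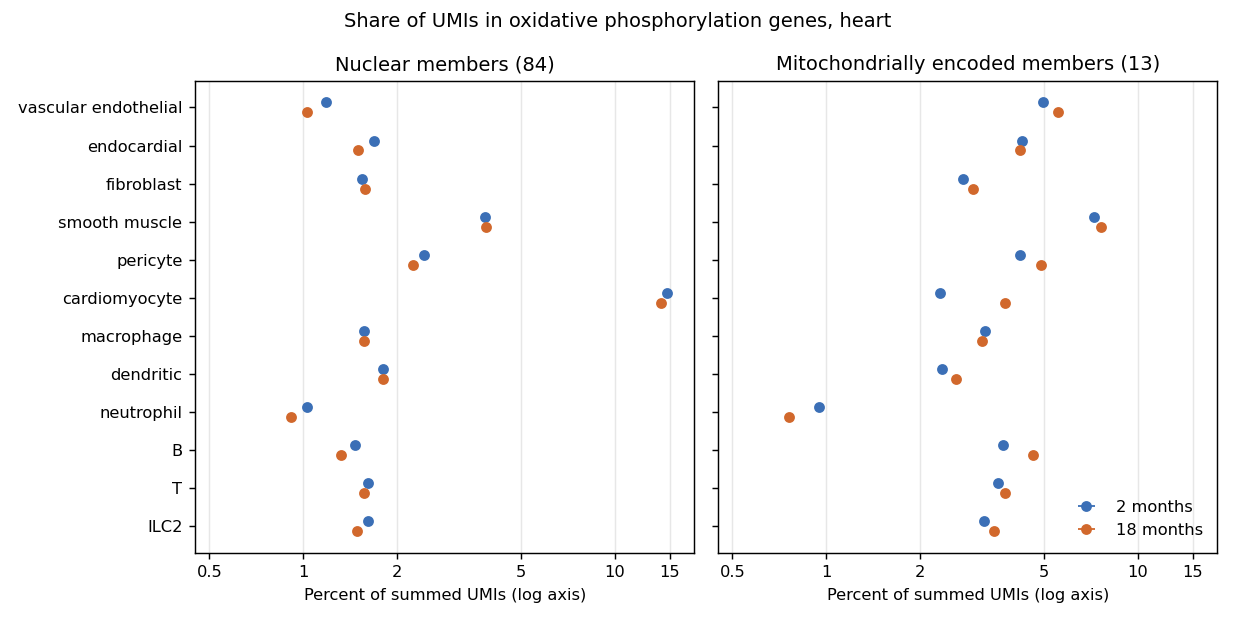
Share of summed UMIs in nuclear members (left) and mitochondrially encoded members (right) for each heart class, on a log axis, with a point per library and exact 95% binomial intervals that are often narrower than the point. Cardiomyocytes lie at 14.7% and 14.0% on the left and at 2.32% and 3.76% on the right.

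In cardiomyocytes the mitochondrially encoded members were higher in the 18-month library and the nuclear members were not. All 13 mitochondrially encoded members were called higher (6.23% of all genes tested in this class were), with ratios from 0.60 for mt-Nd1 to 0.97 for mt-Nd6 and a median of 0.70. TMM scaling subtracted 0.13 from every ratio of this class, which lowered them. With it 6 of 13 were called and the median was 0.57, and the share of all genes called with it is not given. mt-Co1, the catalytic subunit of complex IV, stood at 3485 CPM at 2 months and 6318 CPM at 18 months (log2 ratio 0.86, 0.80 to 0.92). mt-Cytb, the only mitochondrially encoded subunit of complex III, stood at 2552 and 4031 CPM (0.66, 0.59 to 0.73). mt-Atp6, a subunit of the ATP synthase's proton channel, stood at 3359 and 5396 CPM (0.68, 0.62 to 0.74). Of 79 nuclear members none was called in either direction (2.36% of all genes were called lower), and 62 had a ratio below 0, with a median of -0.09 against 0.01 over all genes tested.

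Cell depth moved with this difference. In cardiomyocytes with 1000 to 3000 UMIs the mitochondrially encoded share was 4.76% at 2 months (281 cells) and 4.92% at 18 months (62 cells). In those with 3000 to 10000 UMIs it was 2.13% (290 cells) and 2.46% (49 cells). Below 1000 UMIs it was 3.8% (58 cells) and 6.27% (25 cells). The 56 cells above 10000 UMIs at 2 months, with 0.897%, had no comparable band at 18 months. The median ratio was 0.23 among cells of 3000 to 10000 UMIs and 0.33 with cells thinned to 1000 UMIs, against 0.70 over all cells. The 58 and 25 cells under 1000 UMIs, the band with the widest gap above, could not be thinned to that depth. Of 17 dissociation stress genes, 13 were also called higher in cardiomyocytes at 18 months (median 1.07), where 6.23% of all genes were. Their part in the result was not tested.

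**Figure D2:**
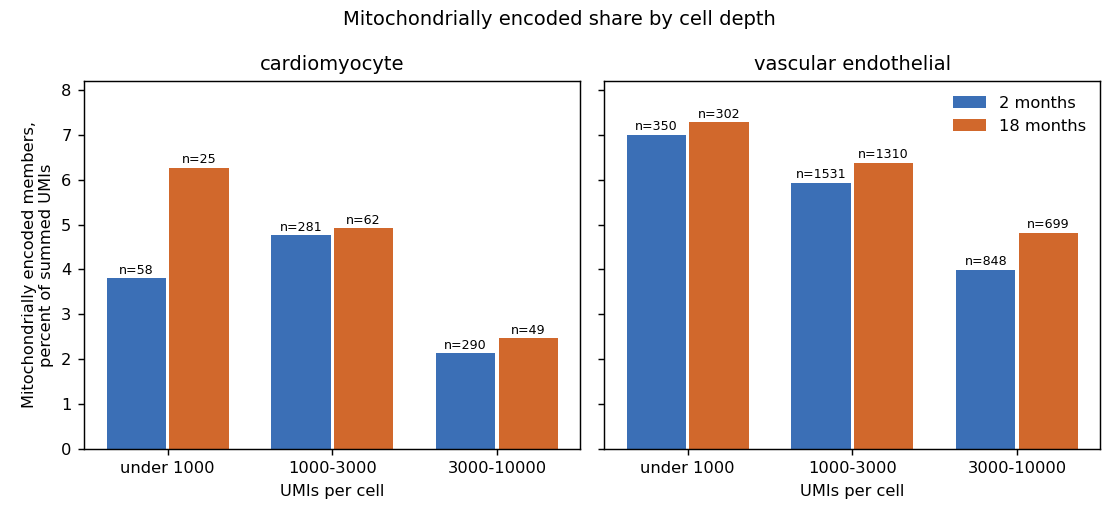
Mitochondrially encoded share of summed UMIs by UMIs per cell for cardiomyocytes (left) and vascular endothelial cells (right), bars from 0, with the number of cells above each bar. In cardiomyocytes the libraries stand at 3.8% and 6.27% below 1000 UMIs and at 4.76% and 4.92% from 1000 to 3000 UMIs.

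Among the nuclear members of cardiomyocytes by complex, the median ratio was -0.11 in complex I, 0.03 in complex II, -0.07 in complex III, -0.03 in complex IV and -0.13 in complex V. The lowest members by the naming rule were Ndufb6 (607 and 504 CPM, -0.27) and Ndufa10 (862 and 720 CPM, -0.26) of complex I and Atp5d (2298 and 1946 CPM, -0.24) of the ATP synthase. The highest were Cox6a1 (131 and 172 CPM, 0.39), Cox6a2 (3316 and 3901 CPM, 0.23) and Ndufa1 (737 and 843 CPM, 0.19). None of these 6 reached 1.5-fold.

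In vascular endothelial cells the 2 genomes' transcripts lay on opposite sides of 0. All 13 mitochondrially encoded members had ratios above 0 (median 0.16), none of them 1.5-fold (5.08% of all genes were called higher). Of 81 nuclear members 78 had ratios below 0 and 52 had an interval wholly below 0 (12.8% of all genes did). The nuclear median was -0.19 against -0.01 over all genes. The shift was broad and small: the nuclear share was 1.18% at 2 months and 1.03% at 18 months. Cardiomyocyte RNA in this class was also lower at 18 months. Its median marker stood at 0.689% and 0.294% of the cardiomyocyte level. Nuclear members are a large share of that RNA, and how much of the shift came with it is not given here. By complex the nuclear medians were -0.16 (I), -0.02 (II), -0.21 (III), -0.25 (IV) and -0.20 (V). Only 4 nuclear members were called lower (4.94%, against 4.07% of all genes), led by Ndufa4l2 (10.5 and 3.35 CPM, -1.64), Cox7a1 (22.9 and 8.31 CPM, -1.47) and Cox8b (16.6 and 8.31 CPM, -1.0). All 5 vascular endothelial clusters had a negative nuclear median (-0.14 to -0.36). 4 of them had a positive mitochondrially encoded median, and the fifth, a shallow cluster with medians of 949.5 and 925 UMIs, had -0.13.

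Fibroblasts and smooth muscle cells differed little between the libraries. In fibroblasts the mitochondrially encoded median was 0.14 and the nuclear median 0.04. Of 81 nuclear members 1 was called higher (7.06% of all genes were) and 2 lower (2.89% of all genes). Cox6b2, a subunit isoform known from testis, stood at 6.75 and 15.3 CPM (1.18, 0.81 to 1.53). Cox6a2 (7.69 and 2.88 CPM, -1.42) and Cox7a1 (10.3 and 5.09 CPM, -1.01) were the ones lower. In smooth muscle the medians were 0.06 and 0.01, and 2 of 81 nuclear members were called lower and none higher (2.09% and 5.37% of all genes). Its highest 3 members were Atp5g3 (448 and 513 CPM, 0.20), Ndufb10 (549 and 617 CPM, 0.17) and Atp5k (596 and 663 CPM, 0.16). Its lowest was Cox6a2, at 6.89 and 2.17 CPM, the latter from 3 UMIs.

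Pericytes, endocardial cells and ILC2 had nuclear medians below 0, from fewer cells. Cardiomyocyte RNA was also lower at 18 months in each. The median cardiomyocyte marker stood at 0.271% and 0.043% of its cardiomyocyte level in pericytes and 0.635% and 0.118% in endocardial cells. In ILC2 it stood at 0.187% and 0.043%. How much of the nuclear medians came with that RNA is not given here. In pericytes (171 and 52 cells) the mitochondrially encoded median was 0.24, with mt-Atp8 called higher (3.65% of all genes were). The nuclear median was -0.11, with 2 of 77 called lower (3.11% of all genes): Uqcrc2, a core subunit of complex III (141 and 91.5 CPM, -0.63), and Cox7a2l (314 and 209 CPM, -0.59). In endocardial cells (94 and 191 cells) the medians were -0.05 and -0.19, with mt-Nd6 called higher (6.17% of all genes) and 4 of 75 nuclear members lower (8.69% of all genes). Uqcrfs1, the iron-sulfur subunit of complex III, was the lowest of these by the naming rule (114 and 59.6 CPM, -0.94). In ILC2 (81 and 105 cells) the medians were 0.08 and -0.18, against -0.11 over all genes, and 4 of 74 nuclear members were called lower and none higher (6.21% and 2.72% of all genes). Ndufa12 of complex I led them (122 and 71.1 CPM, -0.77). TMM scaling subtracted -0.16 from every ratio of this class, which raised them. With it 1 nuclear member was called lower and the medians were 0.24 and -0.018. The share of all genes called with it is not given.

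Neutrophils had the most nuclear members called. These short-lived cells are known for few mitochondria and a reliance on glycolysis. At 18 months 23 of 79 nuclear members were called lower (29.1%, against 14.9% of all genes) and 1 higher (6.48% of all genes). The nuclear median was -0.28 against -0.06 over all genes, and the mitochondrially encoded median was -0.30, with mt-Atp8 called lower. Ndufa5 of complex I stood at 38.6 CPM at 2 months and 9.78 CPM at 18 months (-1.98, -2.66 to -1.31). Uqcrb of complex III stood at 102 and 29.9 CPM (-1.77, -2.17 to -1.38), and Ndufc1 of complex I at 58.7 and 17.3 CPM (-1.77). Sdha, the flavin-carrying subunit of complex II, was the 1 higher (32.7 and 49.5 CPM, 0.60, 0.09 to 1.14). The classes were 214 and 922 cells, and RNA of other cells moved with the result: 7 of 8 measured cardiomyocyte markers were called lower at 18 months and 1, Myl2, higher, and Ndufa4l2, a pericyte gene, stood at 27.7 and 0.86 CPM. The largest neutrophil cluster alone (174 and 908 cells) was a view added after seeing the data. In it 19 of 78 nuclear members were called lower, with a median of -0.23. The share of all genes called in that cluster is not given. The other neutrophil cluster, led by Ngp, Camp, Ltf and Lcn2, held 40 and 14 cells and was deeper (median 11962 UMIs). The make-up of the class thus differed between the libraries. TMM scaling subtracted -0.20 from every ratio of the whole neutrophil class, which raised them. With it 16 of 79 nuclear members were called lower and the median was -0.08. The share of all genes called with it is not given.

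Other immune classes had fewer members called. In B cells the mitochondrially encoded median was 0.30 and the nuclear median -0.16, against 0.25 over all genes. Of 81 nuclear members 5 were called lower and none higher (6.35% and 21.2% of all genes). The 3 lowest by the naming rule were Cox7a1, Cox8b and Cox6a2, all under 10 CPM, and the highest was Ndufa6 (202 and 256 CPM, 0.34). B cell depth differed, with medians of 9218 and 4350.5 UMIs. At 2 months 895 of 967 B cells carried hashtag 09, with a median of 9637 UMIs and a nuclear share of 1.48%. The 66 with hashtag 10 had 4335.5 UMIs and 1.31%. Hashtags 11 and 12 at 18 months had 4357 and 4300 UMIs and 1.34% and 1.32%. Mitochondrially encoded shares were 3.68% (09), 4.13% (10), 4.52% (11) and 4.66% (12). For hashtag 11 against 10 the nuclear median was 0.0053. TMM scaling subtracted 0.28 from every ratio of this class, which lowered them. With it 16 nuclear members were called lower and the medians were 0.02 and -0.44. The share of all genes called with it is not given and need not be the 6.35% above. In macrophages both medians were near 0 (-0.02 and -0.01), and 5 of 81 nuclear members were called lower and none higher (3.64% and 4.31% of all genes). In both B cells and macrophages the 5 were Cox4i2, Cox6a2, Cox7a1, Cox8b and Ndufa4l2, isoforms of muscle or mural cells. In dendritic cells the medians were 0.16 and -0.01, with mt-Nd6 called higher (5.71% of all genes) and 3 of 81 nuclear members lower (6.82% of all genes). In T cells they were 0.06 and -0.06, with 1 of 77 nuclear members, Atp5s, called lower and none higher (3.07% and 6.03% of all genes).

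**Figure D3:**
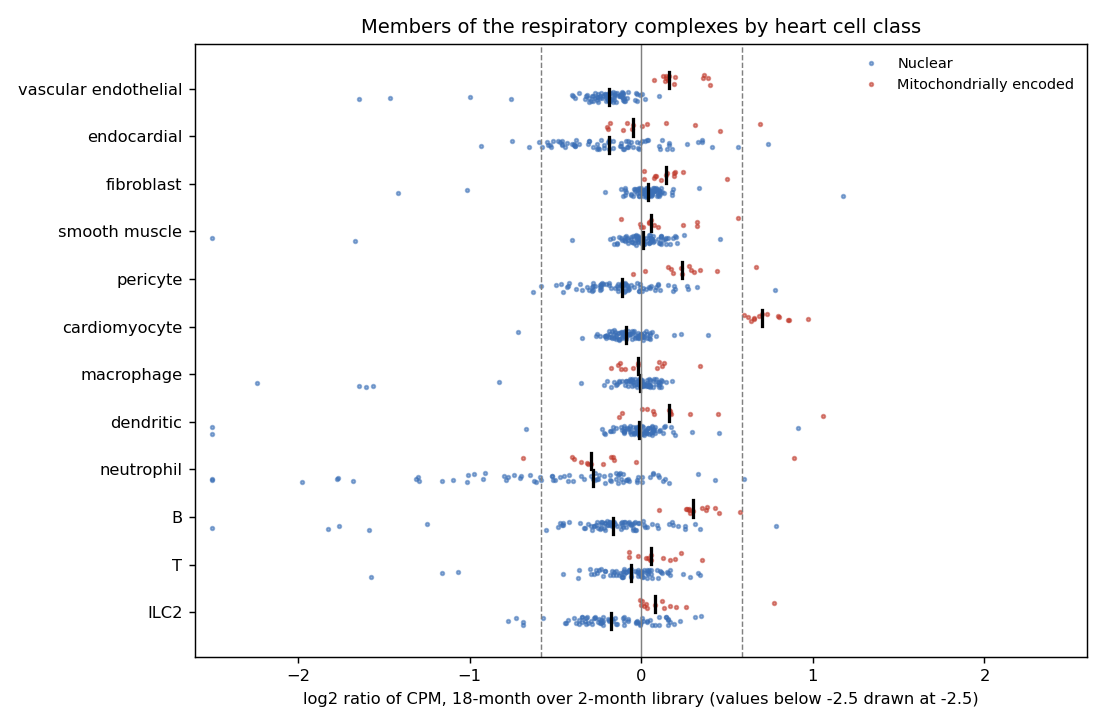
Ratio (log2) of CPM, 18-month over 2-month library, for each measured member in each heart class, a point per member, with black bars at the medians and dashed lines at 1.5-fold. In cardiomyocytes all 13 mitochondrially encoded members lie past the right dashed line, and in vascular endothelial cells they lie right of 0 while 78 of 81 nuclear members lie left of it.

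Over the 12 classes, 16 of 156 mitochondrially encoded values were called higher, 13 of them in cardiomyocytes, and 1 lower. Of 947 nuclear values 2 were called higher and 55 lower. By class the share of all genes called higher ran from 2.72% (ILC2) to 21.2% (B cells). The share called lower ran from 2.09% (smooth muscle) to 14.9% (neutrophils). Of the 55 nuclear values called lower, 23 belong to the restricted isoforms Cox4i2, Cox6a2, Cox7a1, Cox8b and Ndufa4l2 (3 of them in neutrophils). A further 20 are other members in neutrophils, which leaves 12. The mitochondrially encoded median was above 0 in 9 classes and the nuclear median below 0 in 10, and all classes share the same 2 libraries.

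The 13 mitochondrially encoded transcripts did not move as 1 block. mt-Nd6 lies at chrM:13552-14070 on the minus strand of GRCm38 (GENCODE annotation), the only member there on that strand, and overlaps mt-Nd5 by 14 bases. It had the highest median ratio over classes (0.57), with a ratio above 0 in 11 of 12 and an interval wholly above 0 in 7. In smooth muscle it stood at 79.8 and 118 CPM (0.56, 0.30 to 0.81), and in dendritic cells at 13.6 and 28.3 CPM (1.06, 0.65 to 1.48). Its counts were low, 2602 and 1485 UMIs in all. mt-Nd5, at chrM:11742-13565, had an interval above 0 in 11 of 12 classes (median 0.29). In vascular endothelial cells it stood at 647 and 832 CPM (0.36, 0.31 to 0.42). mt-Atp8, at chrM:7766-7969, overlaps mt-Atp6 by 43 bases and had a median of 0.36. By contrast mt-Nd1 had an interval above 0 in 4 classes and below 0 in 6 (median -0.03), and mt-Cytb in 6 and 4 (median 0.04).

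The isoform pairs set cell classes apart. Cox6a2, the muscle isoform of subunit VIa, stood at 3316 CPM at 2 months and 3901 CPM at 18 months in cardiomyocytes, where Cox6a1 stood at 131 and 172 CPM. In smooth muscle the order turned, with Cox6a1 at 697 and 688 CPM and Cox6a2 at 6.89 and 2.17 CPM. Cox8b stood at 2595 and 2654 CPM in cardiomyocytes beside Cox8a at 1275 and 1244 CPM. Cox7a1 stood at 3228 and 2886 CPM there beside Cox7a2 at 2443 and 2490 CPM. Cardiomyocytes therefore carried both members of the Cox7a and Cox8 pairs at high level, and almost only the muscle member of the Cox6a pair.

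In vascular endothelial cells and B cells the muscle isoforms lay close to the level read from the cardiomyocyte markers there. In vascular endothelial cells the median cardiomyocyte marker reached 0.689% of its cardiomyocyte level at 2 months and 0.294% at 18 months. That fraction of the cardiomyocyte level gives 22.8 and 11.5 CPM of Cox6a2 (measured 26.5 and 15.7), 22.2 and 8.48 CPM of Cox7a1 (measured 22.9 and 8.31) and 17.9 and 7.80 CPM of Cox8b (measured 16.6 and 8.31). In B cells Cox6a2 stood at 5.76 and 2.42 CPM, and the markers gave 6.37 and 2.5 CPM. The lower level of these isoforms at 18 months thus went with a lower level of the cardiomyocyte markers in both classes. Cox7a1 stood above that level in mural cells: in pericytes at 24.7 and 42.5 CPM (8.76 and 1.25 from the markers) and in smooth muscle at 20.1 and 23.1 CPM (12.4 and 2.72).

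Cox6a2 was also above the level read from the markers in dendritic cells, at 25.3 and 24.7 CPM against 4.54 and 2.00 CPM. Splitting this class by Siglech, a marker of plasmacytoid dendritic cells, was chosen after these values were seen. The 16 cells with at least 3 Siglech UMIs at 2 months held 445 CPM of Cox6a2 and the 8 at 18 months 891 CPM, with 0 UMIs of Cox7a1 and Cox8b in both. The 317 and 291 other dendritic cells held 4.15 and 2.49 CPM.

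Cox4i2 and Ndufa4l2 marked mural cells. Cox4i2 is the isoform of complex IV subunit IV linked to low oxygen, and Ndufa4l2 is a hypoxia-inducible relative of Ndufa4. Cox4i2 stood at 1182 and 1104 CPM in pericytes and 770 and 761 CPM in smooth muscle, and at 31.4 and 27.1 CPM in fibroblasts, the next class. Ndufa4l2 stood at 1951 and 1777 CPM in pericytes, 853 and 823 CPM in smooth muscle and 123 and 115 CPM in fibroblasts. Pericytes alone held more Cox4i2 than Cox4i1 (843 and 693 CPM). They also had the lowest Ndufa4 of the 12 classes, at 72.5 and 71.9 CPM, where smooth muscle had 428 and 472 CPM and cardiomyocytes 2895 and 2757 CPM. In both mural classes these levels differed little between the libraries.

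**Figure D4:**
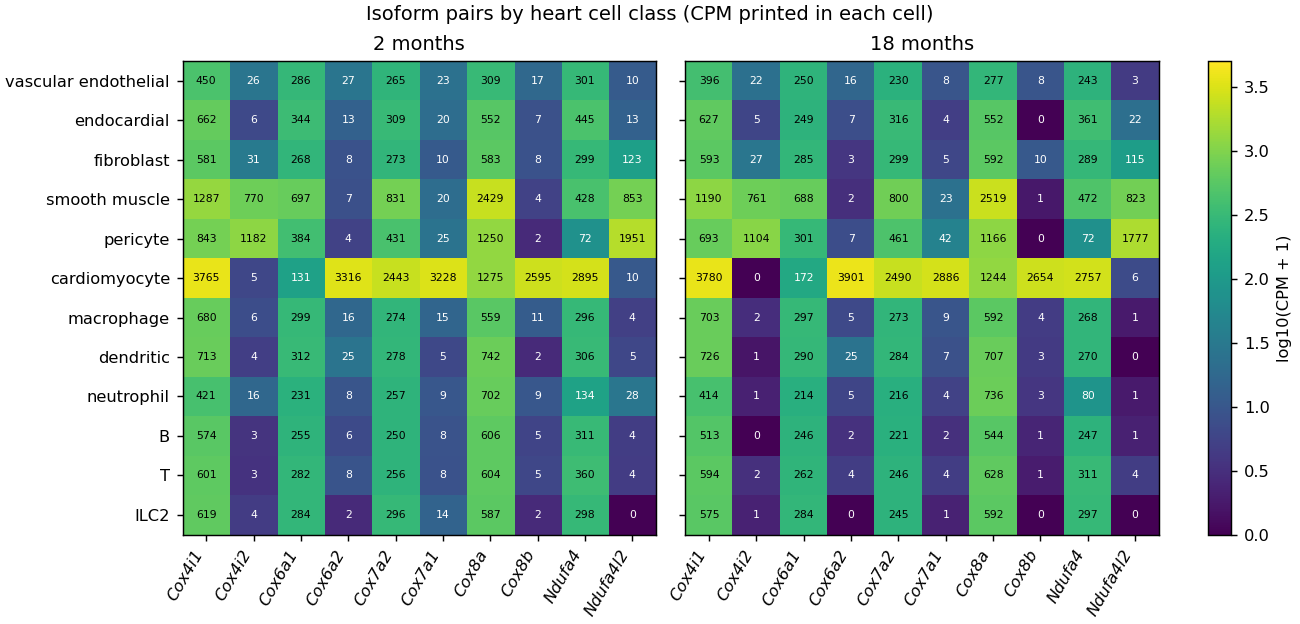
CPM of the paired isoforms in each heart class at 2 months (left) and 18 months (right), printed in each cell and coloured by log10(CPM + 1). Cox6a2, Cox7a1 and Cox8b stand out in the cardiomyocyte row, and Cox4i2 and Ndufa4l2 in the pericyte and smooth muscle rows.

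Related lists were read by the same rule. Of 45 complex assembly factors in vascular endothelial cells, 44 were measured with 1 called lower (Cox11, -0.64) and a median of -0.04. Of 77 measured mitochondrial ribosome genes there, 1 was called higher (Mrps18b, 0.59), where 5.08% of all genes were, and the median was -0.08. The 14 electron and nucleotide carriers had a median of -0.21 with 1 called lower (Chchd10, -1.56). In neutrophils 12 of 61 mitochondrial ribosome genes were called lower and 3 higher (median -0.43). There 4 of 14 carriers were called lower (median -0.46), and 14.9% of all genes were called lower and 6.48% higher. Of 10 cardiomyocyte markers, 7 were called lower in vascular endothelial cells (median -1.16), where 4.07% of all genes were.

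The lymph node library gave 6538 cells in 9 T cell states, again clustered without the members. Hashtags 1 to 8 mark the pooled samples, and no source used here ties a hashtag to an age, so each is given as an unassigned sample. Each state was set beside the T cells of the other 8 states, with the same rule for a call. Ratios here are state over other T cells, and a hashtag with under 20 cells in a state was left out for that state.

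Cycling T cells stood apart from the other states. Their nuclear members took 2.90% of UMIs against 2.05% in the other T cells, and their mitochondrially encoded members 1.42% against 2.08%. Over the 8 hashtags the nuclear share ran from 2.59% to 3.15% (median 2.93%) and was above the other T cells of the same hashtag in 8 of 8. The mitochondrially encoded share ran from 1.13% to 1.6% (median 1.41%) and was below in 8 of 8. The 2 genomes thus moved apart in this state, with a ratio of mitochondrially encoded to nuclear UMIs of 0.488 and 0.958 to 1.08 in the other states.

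In cycling T cells 34 of 77 measured nuclear members were called higher (44.2%, against 14.5% of all genes) and 2 lower (17.7% of all genes). The nuclear median was 0.56 against -0.13 over all genes. Calls spanned the complexes: 15 of 35 in complex I, 2 of 4 in complex II, 4 of 8 in complex III, 6 of 14 in complex IV and 7 of 16 in complex V. Atp5g3, a ring subunit of the ATP synthase, stood at 1227 CPM against 549 CPM in the other T cells (1.16, 1.10 to 1.22), and by hashtag from 1019 to 1402 CPM (median 1261), above the others in 8 of 8. Cox5a stood at 603 against 299 CPM (1.01) and Cox5b at 782 against 394 CPM (0.99), both core nuclear subunits of complex IV and both above in 8 of 8 hashtags. Cox7a2l went the other way, at 208 against 317 CPM (-0.61), below in 8 of 8. Atp5s was the other one lower (2.40 against 8.62 CPM). Cox7a1, from 8 UMIs in the state, stood at 3.20 against 1.06 CPM (1.60, 0.25 to 2.78).

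All 13 mitochondrially encoded members had ratios below 0 in cycling T cells, and 7 were called lower (17.7% of all genes were), with a median of -0.60. mt-Nd2 was lowest, at 478 against 990 CPM (-1.05, -1.13 to -0.97), followed by mt-Nd4 at 351 against 587 CPM (-0.74). mt-Cytb stood at 2130 against 2663 CPM (-0.32). Cycling cells were deeper than most states (median 5095.5 UMIs), and at 1000 UMIs per cell the medians were 0.43 for nuclear and -0.43 for mitochondrially encoded members. In this state 14.5% of all genes were called higher and 17.7% lower. Other lists were 22 of 78 mitochondrial ribosome genes called higher and none lower (median 0.41), 9 of 14 carriers higher and 6 of 13 citric acid cycle genes higher. Of 15 glycolysis genes 7 were called higher and 2 lower.

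**Figure D5:**
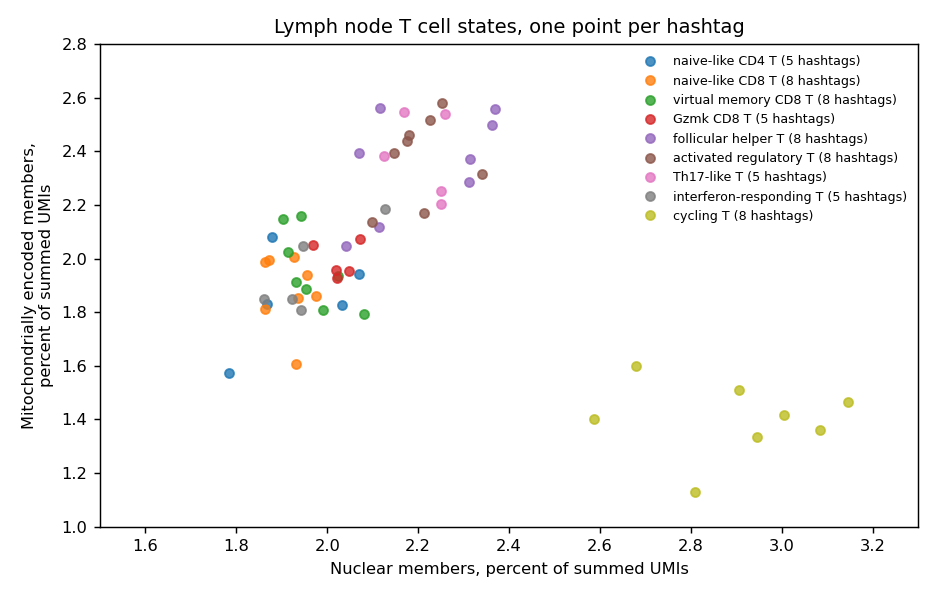
Share of summed UMIs in nuclear members (x axis) and mitochondrially encoded members (y axis) in each T cell state, a point per hashtag with at least 20 cells. Cycling T cells lie at the lower right (2.59% to 3.15% nuclear, 1.13% to 1.6% mitochondrially encoded), and most follicular helper, regulatory and Th17-like points lie above those of the CD8 states.

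Activated regulatory and follicular helper T cells had more of the mitochondrially encoded members, and Th17-like T cells did so less firmly. Their shares were 2.38%, 2.40% and 2.33%, against 1.96%, 1.97% and 2.02% in the respective other T cells. The share was above the other T cells in 8 of 8, 8 of 8 and 5 of 5 hashtags. All 13 mitochondrially encoded members had ratios above 0 in each of the 3 states. The medians were 0.31, 0.26 and 0.18, and those over all genes 0.21, 0.19 and 0.09, so part of the shift was shared by genes at large. With cells thinned to 1000 UMIs the medians were 0.29, 0.24 and 0.047, and as a mean over cells 0.31, 0.25 and 0.025. The nuclear medians were 0.09, 0.11 and 0.08. In regulatory T cells mt-Nd6 (57.5 against 37.5 CPM, 0.62) and Atp5s (12.9 against 7.21 CPM, 0.84) were called higher (19.2% of all genes) and none lower (8.07%). In follicular helper T cells 1 nuclear member was called higher, Cox7a1 at 3.19 against 0.977 CPM, from 11 UMIs (14.7% of all genes), and none lower (7.82%). In Th17-like T cells, a cluster whose leading genes include Tcrg-C1, a gamma delta T cell gene, Ndufs5 (211 against 129 CPM, 0.71) and Ndufv3 (350 against 218 CPM, 0.68) of complex I were called higher (12.0% of all genes), both in 5 of 5 hashtags, and none lower (6.71%).

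In the CD8, naive-like and interferon-responding states the nuclear medians were below 0, in most of them no lower than the median over all genes. In naive-like CD8 T cells 72 of 77 had ratios below 0 (median -0.24 against -0.35 over all genes), and 2 nuclear members and mt-Nd6 were called lower (27.0% of all genes) and none higher (2.45%). Ndufb8 of complex I was one of them, at 109 against 166 CPM (-0.61) and below in 8 of 8 hashtags, and the other was Cox7a1, with 2 UMIs in the state. In virtual memory CD8 T cells the nuclear median was -0.14 against -0.26, with Cox7a1 (1 UMI in the state) and mt-Nd6 called lower (21.2% of all genes) and none higher (4.18%). In Gzmk CD8 T cells it was -0.09 against -0.02, with Atp5s called higher (6.89% of all genes) and none lower (12.9%). In naive-like CD4 T cells it was -0.12 against -0.14, with none called (3.85% and 10.0% of all genes), though Cox7a2l stood at 424 against 303 CPM (0.48) and above in 5 of 5 hashtags. In interferon-responding T cells it was -0.17 against -0.19, with none called (3.33% and 9.02% of all genes), and the mitochondrially encoded median was -0.12. The naive-like CD8 state was the deepest (median 6669 UMIs) and the regulatory state the shallowest (2466 UMIs). With cells thinned to 1000 UMIs the nuclear medians of these 5 states lay between -0.16 and -0.05, and the mitochondrially encoded median of virtual memory CD8 T cells was -0.12 in place of -0.0043.

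The restricted isoforms were near or at 0 in the T cells. Over 28024776 UMIs, Cox8b and Ndufa4l2 were at 0, which allows up to 0.107 CPM. Cox4i2 had 7 UMIs, Cox6a2 15 and Cox7a1 35, beside 21184 of Cox4i1 and 8834 of Cox6a1.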

How the data were processed

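Each gene matrix the authors deposited lists UMI counts by gene and barcode, and per the file headers Cell Ranger 3.1.0 wrote it. The submitters' processing notes name mm10 and GRCm38.

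Barcodes with fewer than 200 genes or over 15% mitochondrial UMIs were dropped. Scrublet (expected rate 8%) removed 493 and 228 heart doublets. It marked 0 in the node library, where 2614 cells without 1 clear hashtag (at least 5 UMIs and 3 times the next) were dropped. Leiden clusters (resolution 1, 2000 variable genes, 30 components) used no member gene and were named from listed markers, by limits set after seeing the data. Unnamed heart cells (1135 and 713) entered no class. Counts were summed by class. Exact binomial intervals were run on counts simulated with counting error only, which cannot show how they cover spread between cells or animals. A count of 0 entered a ratio as 0.5.

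Named genes were the mitochondrially encoded members, the isoform pairs and, per class or state, up to 3 highest and 3 lowest nuclear members with at least 50 UMIs and an interval leaving out 0. A few others were named after their values were seen. Members and lists were chosen with earlier results of these data known. Receptor sequences were not used here. Python 3.11.15, SciPy 1.17.1 and Scanpy 1.11.5 were used.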

Additional observations from a re-analysis of the deposited data

Results flagged for a closer look

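Cells with 15 to 30% mitochondrial UMIs, left out above, were a larger share of the class at 18 months than at 2 months in 12 of 12 heart classes. In vascular endothelial cells they were 7.79% at 2 months and 11.02% at 18 months. In cardiomyocytes they were 9.39% and 16.9%. In neutrophils they were 0 of 214 cells and 1 of 923. These cells were given a class by their nearest clustered cells, all classes share the same 2 libraries, and the difference was not tested.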

How the results depend on the processing

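No paired analysis was possible because each age is 1 library and the labels tie no hashtag to an animal. The members called in the heart, 74 in all, were 33 with cells thinned to 1000 UMIs, 38 in cells of 3000 to 10000 UMIs and 49 with at least 100 UMIs per member. In the nodes 54 calls were 30 with a mean over cells.

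The mitochondrially encoded median in vascular endothelial cells (0.16) was 0.038, 0.13 and 0.21 with limits of 5%, 8% (at most 15000 UMIs) and 30%. It was 0.28 at 3000 to 10000 UMIs, 0.13 as a mean over cells, 0.22 and 0.19 in cells with Y-linked UMIs or with Xist alone, and 0.11 for hashtag 12 against 10. In fibroblasts (0.14) it was 0.11 and 0.17 at limits of 5% and 30%, 0.070 with TMM, 0.092 thinned, -0.0021 at 3000 to 10000 UMIs, 0.11 at a clustering resolution of 0.5 and 0.11 in cells with Xist. By hashtag it was 0.10 (11 against 09), 0.23 (12 against 09), -0.02 (11 against 10) and 0.055 (12 against 10). In cardiomyocytes (0.70) it was 0.47 at a limit of 5%, 0.57 with TMM, 0.33 thinned, 0.23 at 3000 to 10000 UMIs, 0.44 as a mean over cells and 0.92 for hashtag 12 against 10. The cardiomyocyte nuclear median (-0.09) was -0.22 with TMM and 0.051 for hashtag 12 against 09. The vascular endothelial nuclear median stayed between -0.31 and -0.11 in 19 settings.

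In cycling T cells the mitochondrially encoded median (-0.60) was -0.43 thinned and -0.35 as a mean over cells, and the nuclear median (0.56) was 0.43 in both. Neutrophil mitochondrially encoded medians ran from -0.59 in cells with Y-linked UMIs to 0.18 in cells with Xist. At least 1 of the 2 medians changed sign in some setting in every heart class except vascular endothelial cells and pericytes. The fibroblast nuclear median did so in 5 of 19 settings, the ILC2 mitochondrially encoded median in 1 of 17 and the B cell nuclear median in 1 of 18. The causes were not tested.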
